A study of Brassica napus with 2 samples.

Results

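*IAA27* orthologs are the *B. napus* genes whose *Arabidopsis* counterpart is AT4G29080 (IAA27) in the ortholog table of the study. There are 4 such genes among the 119 *Aux/IAA* genes of that genome: the homeologous pair *BnaA01.IAA.2* (BnaA01g07810D, chromosome A01) and *BnaC01.IAA.2* (BnaC01g09350D, chromosome C01), and the homeologous pair *BnaA08.IAA.3* (BnaA08g13510D, chromosome A08) and *BnaC08.IAA.2* (BnaC08g13430D, chromosome C08). Expression values were at hand for the A01 and C01 genes, so that 2 of the 4 were analysed. The A08 and C08 genes were not analysed here, and nothing is said of their level. The table used lists 0 genes at 0 FPKM in both libraries. All 4 belong to phylogenetic subgroup A2 of the family, together with the orthologs of *IAA8* and *IAA9*.

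The libraries came from whole 30-day-old *B. napus* seedlings without any transgene or mutation in the labels. In 1 library the seedlings had been kept for 3 h with 1 μM IAA, the main auxin that plants make themselves. In the control library they had been kept for 3 h with 0 μM IAA, in a medium that the sample labels give as water and the methods as liquid MS. Each library was made from 10 pooled seedlings, and there was 1 library per condition, so that no value below has a replicate check and no test of the treatment could be made. Markers of seedling tissues were not looked up, because the gene identifiers carry no gene names.

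Aux/IAA proteins are short-lived nuclear repressors. They bind auxin response factors and hold auxin-responsive genes silent with the help of TOPLESS corepressors. Auxin glues them to the TIR1/AFB receptors, after which they are ubiquitinated and degraded, and many *Aux/IAA* genes are themselves transcribed in response to auxin, which closes a feedback loop. The study names the proteins of *BnaA01.IAA.2*, *BnaA08.IAA.3* and *BnaC08.IAA.2* among those with truncated domains. This outline may therefore not hold in full for them. In *Arabidopsis*, IAA27 was also isolated as a phytochrome-associated protein. In tomato, the IAA27 protein acts in root development and chlorophyll accumulation.

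Both *IAA27* orthologs with values were at a moderate level in the control seedlings and lower, not higher, in the IAA library. *BnaA01.IAA.2*, the copy on the A subgenome, had 7.81 FPKM in the control library and 4.81 FPKM in the IAA library. FPKM counts sequenced fragments, scaled to the length of the transcript and to the size of the library. The IAA value was 61.6% of the control value. *BnaC01.IAA.2*, the copy on the C subgenome, had 9.53 FPKM in the control library and 7.74 FPKM with IAA, or 81.2% of the control value. Both copies thus had their higher value without IAA.

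The log2 fold change of IAA over control, with 0.1 FPKM added to both values, was -0.69 for *BnaA01.IAA.2* and -0.30 for *BnaC01.IAA.2*. Their median was -0.49, whereas the median of all 63193 genes was -0.13 and that of the 93 *Aux/IAA* genes with values was 0.59. A 2-fold increase was reached by 0 of the 2 *IAA27* orthologs, by 4.22% of all genes and by 41.9% of the *Aux/IAA* genes. A 2-fold decrease was likewise reached by 0 of the 2, by 8.68% of all genes and by 1.08% of the *Aux/IAA* genes. A log2 fold change below 0 was found for both, and for 62.7% of all genes and 28% of the *Aux/IAA* genes. Of all genes, 15.8% had a lower log2 fold change than *BnaA01.IAA.2* and 35.7% a lower one than *BnaC01.IAA.2*. Among all genes neither thus stood at an extreme, but the table holds many genes of low level. Within the 93 *Aux/IAA* genes, counted from the lowest log2 fold change, *BnaA01.IAA.2* stood at place 6 and *BnaC01.IAA.2* at place 20. In the control library 71.8% of all genes had a lower value than *BnaA01.IAA.2*. When 1 FPKM was added instead of 0.1, which damps low values, 873 rather than 5487 genes were at least 2-fold lower. The place of the 2 genes among genes of like level was not looked up.

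**Figure D1:**
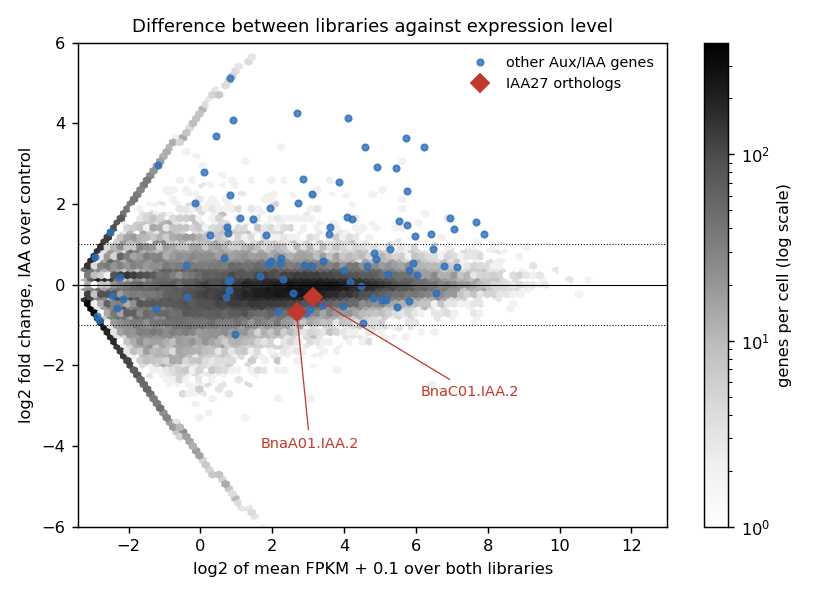
Log2 fold change of IAA over control (y axis) against the log2 of the mean FPKM plus 0.1 over both libraries (x axis) for all genes (grey cells, shaded by the number of genes on a log scale), the other *Aux/IAA* genes (blue points) and the *IAA27* orthologs (red diamonds). Both diamonds lie below 0 and above the dotted line at a 2-fold decrease, within the dense part of the table, while most blue points lie above 0; 44 genes beyond 6 in either direction are not drawn.

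How many fragments lay behind these values was estimated from the FPKM, since genes with few fragments take values that are multiples of 1 fragment. The estimated depth was 23700000 fragments without IAA and 18300000 fragments with it. At this depth *BnaA01.IAA.2* rested on 80 fragments in the control library and 38 with IAA. *BnaC01.IAA.2* rested on 153 and 96 fragments. The C copy, with more fragments, was therefore the more precisely measured one.

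From these fragments, an exact Poisson interval at 95% ran from 6.18 to 9.70 FPKM in the control library and from 3.39 to 6.58 FPKM with IAA for *BnaA01.IAA.2*. The intervals overlapped narrowly. For *BnaC01.IAA.2* they ran from 8.08 to 11.2 FPKM and from 6.28 to 9.46 FPKM, with a broader overlap. The exact binomial (Clopper-Pearson) interval of the log2 ratio itself ran from -1.30 to -0.13 for *BnaA01.IAA.2*, which leaves out 0. Such an interval below 0 was found for 15.1% of the *Aux/IAA* genes. For *BnaC01.IAA.2* it ran from -0.68 to 0.08, which includes 0, and at this depth no change of this copy could be detected. The interval of *BnaA01.IAA.2* takes in the median of all genes, which lies close to its upper end. After the IAA library was centred the upper end was -0.04. At 0.5 times the estimated depth the upper end was 0.12, so that the interval included 0. All these intervals cover counting error only and say nothing about the spread between pools of seedlings.

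Added together, the *IAA27* orthologs had 17.3 FPKM in the control library and 12.6 FPKM with IAA, a log2 fold change of -0.46. A sum of estimated fragments does not depend on how those common to these 2 copies were divided between them. It can still depend on how fragments shared with other related genes were assigned. The summed fragments went from 233 to 134. This is a log2 ratio of -0.43 with an interval from -0.74 to -0.11. The median log2 fold change of all genes, -0.13, lay inside that interval. The upper end was -0.02 after centring and 0.03 at 0.5 times the estimated depth, where the interval included 0. In the control library the *IAA27* orthologs made up 1.00% of the summed FPKM of the *Aux/IAA* genes with values, and in the IAA library 0.373%. Over the same libraries the summed FPKM of the other 91 *Aux/IAA* genes went from 1714 to 3356. By level, *BnaC01.IAA.2* stood at place 36 of the 93 *Aux/IAA* genes in the control library and at place 51 with IAA. *BnaA01.IAA.2* went from place 41 to place 60.

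The copies on the A and C subgenomes were next compared within each library. *BnaA01.IAA.2* contributed 45.0% of the summed FPKM of the pair in the control library, with an exact binomial interval from 38.1% to 51.9%. A higher level of the C copy was thus not detectable without IAA. With IAA the A copy contributed 38.3%, with an interval from 29.3% to 47.6%, and in FPKM the C copy was the higher one beyond counting error. The change in share between the libraries was smaller than counting error could show: the log2 fold change of the A copy differed from that of the C copy by -0.40, with an exact interval from -1.11 to 0.30. These shares depend on the gene models, since the coding sequence annotated for *BnaA01.IAA.2* is much shorter than that of *BnaC01.IAA.2*. Without division by length the A copy held 34.3% of the fragments in the control library and 28.4% with IAA, and per coding length its share was 60.2% and 53.4%. Which copy was higher therefore turned with the length used.

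**Figure D2:**
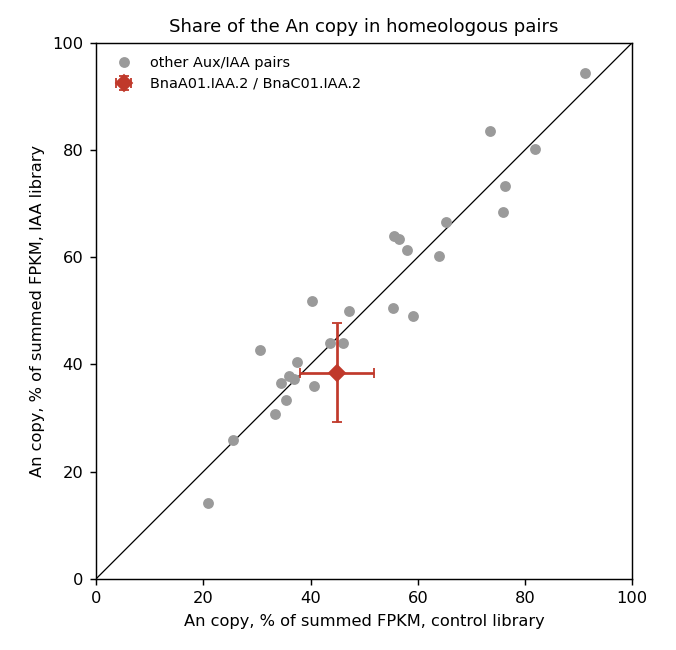
Share of the An copy (the copy on the A subgenome) in the summed FPKM of each homeologous *Aux/IAA* pair, in percent, in the control library (x axis) and in the IAA library (y axis), for the 27 pairs with at least 1 FPKM in all 4 values. The *IAA27* pair (red diamond, bars are 95% exact binomial intervals of counting error) lies below the line of equal shares, at 45.0% and 38.3%, and both bars reach that line.

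Among the 27 homeologous *Aux/IAA* pairs with at least 1 FPKM in all 4 values, both copies were lower with IAA in 8 pairs, the *IAA27* pair among them, and both higher in 19. In 0 pairs did the copies go opposite ways. The share of the A copy in the control library ran from 20.9% to 91.2% over these pairs, with a median of 46.0%, close to the 45.0% of the *IAA27* pair. With IAA the share moved by -6.71 percentage points in the *IAA27* pair, against a median absolute shift of 3.11 points, and 8 pairs moved further.

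The closest relatives of the *IAA27* orthologs, in the same subgroup A2, are those of *IAA8* and *IAA9*. IAA8 acts in lateral root and flower development in *Arabidopsis*, and the tomato counterpart of IAA9 restrains fruit set before pollination. The *IAA8* orthologs went the same way as the *IAA27* orthologs. *BnaA04.IAA.1* had 2.61 FPKM in the control library and 1.06 FPKM with IAA, and *BnaC04.IAA.2* had 9.88 FPKM and 6.47 FPKM. Their log2 fold changes were -1.22 and -0.60, and the interval of each lay below 0. Summed, the *IAA8* orthologs had a log2 ratio of -0.75 on fragments, with an interval from -1.03 to -0.47. The difference between the *IAA27* and the *IAA8* orthologs was 0.32 on the log2 scale, with an exact interval from -0.10 to 0.75, so that no difference between these sets was detectable.

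The *IAA9* orthologs differed from both, in level and in direction. All 4 with values were higher with IAA. *BnaA06.IAA.4* had 92.4 FPKM in the control library and 127 FPKM with IAA. *BnaCX.IAA.5* had 49.3 FPKM and 71.9 FPKM, *BnaCX.IAA.2* had 49.3 FPKM and 63.7 FPKM, and *BnaA09.IAA.2* had 33.8 FPKM and 40.4 FPKM. Even the lowest of these levels was several times that of either *IAA27* ortholog. Their log2 fold changes ran from 0.25 to 0.54, with 0 of the 4 at a 2-fold increase, and the interval of each lay above 0, as it did for 58.1% of the *Aux/IAA* genes. The log2 ratio of the *IAA27* orthologs was lower than that of the *IAA9* orthologs by 0.85 (estimate -0.85, exact interval from -1.17 to -0.54), which is beyond counting error. The remaining 3 genes of subgroup A2, which have no *Arabidopsis* ortholog, were under 1 FPKM in both libraries, and their intervals all included 0. Subgroup A2 has 14 genes, and of the 11 with values 6 were thus below 0 and 5 above 0.

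**Figure D3:**
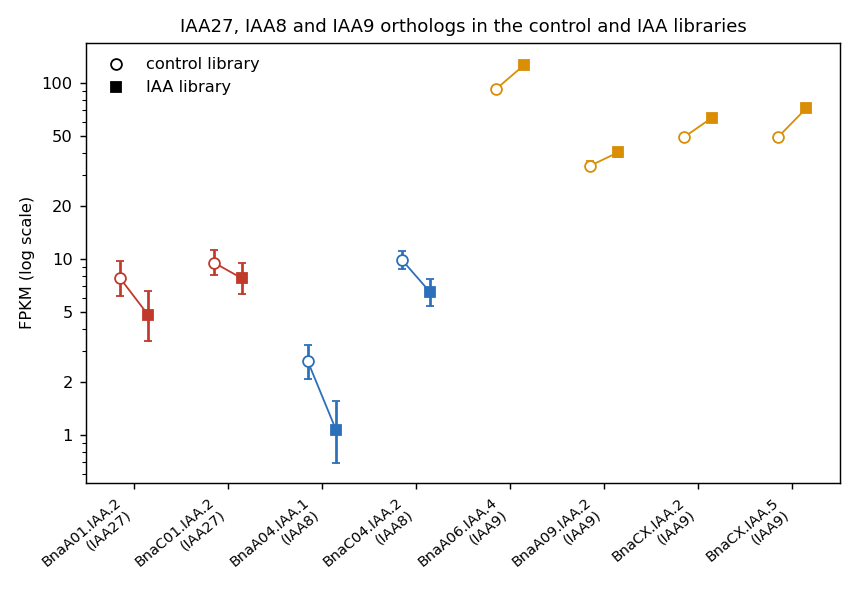
FPKM on a log axis of the *IAA27* (red), *IAA8* (blue) and *IAA9* (orange) orthologs in the control library (open circles) and the IAA library (filled squares), 1 library each, with 95% exact Poisson intervals of counting error as bars. The *IAA27* and *IAA8* orthologs lie at or below 9.88 FPKM and slope down, and the *IAA9* orthologs lie between 33.8 and 127 FPKM and slope up.

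Over the whole family, genes were grouped by their *Arabidopsis* ortholog. This gave 28 sets with values, of which 24 had more than 3 estimated fragments in at least 1 library. For 17 sets the interval of the summed fragments lay above 0, and for 5 it lay below 0. These 5 were the orthologs of *IAA8*, *IAA26*, *IAA18*, *IAA27* and *IAA28*. The log2 ratios were -0.53 for *IAA26*, -0.44 for *IAA18* and -0.30 for *IAA28*, so that the *IAA27* orthologs, at -0.43, lay within the range of this group and their interval overlapped those of all the others in it. By summed FPKM, the *IAA27* set was at place 14 of the 28 sets in the control library and at place 18 with IAA. *IAA18*, *IAA26* and *IAA28* belong to subgroup B2, where 12 of 15 genes with values were below 0 and 10 had an interval below 0. In subgroup A1, which holds the orthologs of *IAA2*, *IAA7* and *IAA17* among others, 4 of 31 genes were below 0 and 18 were at least 2-fold higher. In subgroup A3, which holds the orthologs of *IAA19*, 0 of 7 were below 0 and 6 were at least 2-fold higher.

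**Figure D4:**
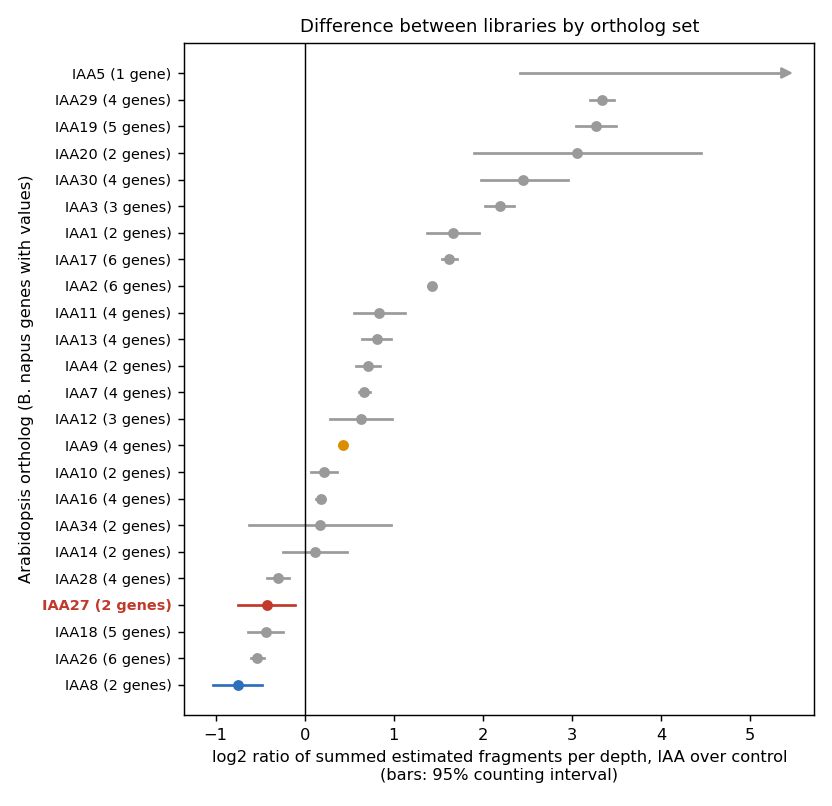
Log2 ratio of summed estimated fragments per depth, IAA over control (x axis), for each set of *B. napus* genes with the same *Arabidopsis* ortholog (y axis, with the number of genes with values), for the 24 sets with more than 3 fragments in at least 1 library. Points are the ratios and bars are 95% exact binomial intervals of counting error; the set with an arrow had 0 fragments in the control library and has no point. *IAA27* (red) lies at -0.43 with its bar below 0, among the 5 sets on that side, and *IAA9* (orange) lies above 0.

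Likeness of pattern was measured as the Euclidean distance of log2(FPKM + 0.1) over the 2 libraries, so that it reflects level as much as difference. The 3 *Aux/IAA* genes nearest to *BnaC01.IAA.2* were *BnaC04.IAA.2*, an *IAA8* ortholog, at a distance of 0.26, *BnaC01R.IAA.3*, an *IAA26* ortholog, at 0.42, and *BnaC06.IAA.1*, an *IAA18* ortholog, at 0.43. The 3 nearest to *BnaA01.IAA.2* were *BnaC08R.IAA.1*, an *IAA14* ortholog, at 0.35, *BnaC01R.IAA.3* at 0.37 and *BnaC04.IAA.2* at 0.54. All of these genes were lower with IAA, with log2 fold changes from -0.71 for *BnaC01R.IAA.3* to -0.22 for *BnaC08R.IAA.1*. The distance uses the same 2 values as the fold change, so that their shared direction was largely set by the way they were chosen. In whole seedlings, fewer cells of a type that expresses *IAA27* and less RNA per cell cannot be told apart.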

How the data were processed

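The authors mapped the reads with HISAT2 2.0.4 to the Darmor-*bzh* genome v4.2 and deposited FPKM per gene from Cufflinks 2.2.1, for 1 control and 1 IAA library. Of the 63193 genes, 0 were at 0 FPKM in both. When transcripts are alike, Cufflinks may split their fragments among the copies. *IAA27* orthologs were taken from the ortholog table of the study and matched by gene identifier. By identifier 2817 of the 63193 genes were found in the RefSeq table of another assembly (Da-Ae). Of the 4 *IAA27* orthologs 0 were found there, so no sequence or position is given.

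Log2 fold changes used a pseudocount of 0.1 FPKM, computed in Python 3.11.15 (scipy 1.17.1, pandas 2.3.3, numpy 2.4.6), and figures were drawn in matplotlib 3.10.9. Depth and mean fragment length (195 bp in both libraries) were those that turned values under 0.3 FPKM of 9 and 7 *Aux/IAA* genes into whole fragments, with transcript lengths from the study's annotation. All 14 and 10 other *Aux/IAA* genes with up to 20 fragments then lay within 0.1 of a whole number. The ratio of the depths was 1.30, beside 1.29, the most frequent ratio among 5083 genes of low value. Intervals were exact, at 95%, conditional for odds ratios, and the method was tested on simulated data. Up to 3 fragments counted as the floor.

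The members, lists and named genes (all members, *IAA8* and *IAA9* orthologs and other subgroup A2 genes, the 3 nearest *Aux/IAA* genes by pattern, and 5 genes on each side by identifier) were chosen with earlier results of these data known. The alternatives were other pseudocounts, filters, scalings, fold thresholds and lengths. Tissue values from the study's supplement were not used here. Auxin pathway genes outside the family were not analysed here, because the identifiers carry no gene names. No gene names were taken for the 2817 genes found by identifier in the RefSeq table.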

Additional observations from a re-analysis of the deposited data

How the results depend on the processing

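No paired analysis was possible because only 1 library exists on either side. Under the other pseudocounts and scalings the log2 fold change stayed between -0.70 and -0.60 for *BnaA01.IAA.2*, between -0.30 and -0.21 for *BnaC01.IAA.2* and between -0.47 and -0.37 for their sum; the filters and fold thresholds cannot change these values. The median of the *IAA8* and *IAA9* orthologs together was 0.31 and lay between 0.31 and 0.40. At a fold threshold of 1.5, 1 *IAA27* ortholog, *BnaA01.IAA.2*, counted as lower, against 0 at 2-fold. The share of the A copy was 34.3% and 28.4% without division by length and 60.2% and 53.4% per coding length. In alternatives chosen after seeing the data, the upper end of the interval of *BnaA01.IAA.2* was -0.15 and -0.10 with mean fragment lengths of 150 and 250 bp, -0.04 after centring, and 0.12 at 0.5 times the estimated depth, where the interval included 0. For the summed pair it was -0.02 after centring and 0.03 at 0.5 times the depth. The *Aux/IAA* genes at least 2-fold higher numbered 39, and between 32 and 40 under the other pseudocounts, scalings and filters. At fold thresholds of 1.5 and 4, 47 and 19 of them counted as higher. Over all genes, 2668 were at least 2-fold higher and 5487 lower, against 666 and 873 when the pseudocount was 1 FPKM, 4311 and 9099 when it was 0.01 FPKM, 1103 and 2137 when either library had to reach 1 FPKM, 752 and 1408 when both had to reach 0.5 FPKM, 5635 and 12204 at a fold threshold of 1.5, and 724 and 1160 at 4. The cause of these changes was not tested.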

Other observations

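The genes beside the *IAA27* orthologs on the chromosome were looked up as well. Of the 5 genes with values on each side of *BnaA01.IAA.2* by identifier, 6 of 10 were above 0 on the log2 scale, with a median of 0.08. BnaA01g07820D, the next identifier, had 11.2 FPKM in the control library and 12.0 FPKM with IAA. The other 4 were below 0, and among the 10 BnaA01g07890D had the largest difference on the log2 scale (-4.89), at 7.17 FPKM in the control library and 0.145 FPKM with IAA. Around *BnaC01.IAA.2*, 6 of 10 genes were above 0 as well, with a median of 0.17, and the next identifier, BnaC01g09360D, had 11.3 FPKM and 12.8 FPKM. Beside the *IAA27* orthologs that were not analysed here, 10 neighbours each had values. Those of *BnaA08.IAA.3* ran up to 14.8 FPKM in the control library with a median log2 fold change of -0.13, and those of *BnaC08.IAA.2* up to 14.0 FPKM with a median of -0.28.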
